A study of Rattus norvegicus with 16 samples.

Results

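Cytosolic ribosomal protein genes encode the proteins that are assembled with ribosomal RNA into the 60S and 40S subunits of the ribosome. They were taken from the deposited expression table of rat liver by gene symbol, as every row named Rpl or Rps followed by a number, or named Rplp0, Rplp1, Rplp2 or Rpsa. Kinases named Rps6k (4 rows) were left out, and a mean of at least 10 normalized counts over the 16 livers was required. These rules gave 59 of the 9645 genes in the table, and no gene that fitted the symbol rule was lost to the minimum mean, since the member with the lowest mean, Rpl11, had 24.6 normalized counts. The livers were those of obese Zucker rats, which lack a working leptin receptor, overeat and develop a fatty liver, and all rats were male. The rats were started on the diets as young animals. They ate a diet based on casein (CAS) or on soy protein isolate (SPI) for 16 weeks. The paper describes the soy protein isolate as high in isoflavones, so soy protein and its isoflavones cannot be told apart here. Each diet had 8 rats and each rat gave 1 library, so every value below compares 8 CAS-fed with 8 SPI-fed rats.

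A ribosome needs 1 copy of nearly every ribosomal protein, and the genes are known to be expressed in a coordinated way. Their mRNAs carry a pyrimidine-rich stretch at the 5′ end, the 5′ terminal oligopyrimidine (TOP) tract, through which the kinase mTOR and the RNA-binding protein LARP1 control translation when amino acids and insulin change. That control acts on translation, and the level of the mRNA, which was measured here, need not follow it. The liver makes large amounts of secreted protein, such as albumin, and so depends on a high capacity for protein synthesis.

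Of the 59 genes, 52 were on a list of 79 canonical ribosomal proteins, 33 of 47 in the 60S subunit and 19 of 32 in the 40S subunit. Another 4 were paralogs of a canonical gene (Rpl10l, Rpl22l1, Rps4y2 and Rps27l), and Rps10l1 is annotated by RefSeq as a pseudogene. The symbol rule also took in Rpl7l1, a nucleolar protein related to Rpl7 that is known in yeast and human cells for ribosome assembly, and Rps19bp1, a nucleolar partner of Rps19. Neither is a subunit of the mature ribosome. The other 27 canonical genes, among them Rps6, Rplp1, Rplp2, Rps19 and Fau, had no row under these symbols in the table. The results below therefore cover a part of the family. All 59 genes passed the filter on low values that preceded the test (at least 10 normalized counts in at least 8 of the 16 livers), and 55 of them reached 10 in all 16 livers. The exceptions were Rpl28 and Rps19bp1 (15 livers each), Rpl13 (14 livers) and Rps10l1 (8 livers).

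Ribosomal protein genes have many processed copies in the genome. RefSeq lists 1192 rat symbols of this family, of which 883 are pseudogenes. Of the 59 genes, 54 have at least 1 copy named after them, up to 36 for Rps2. The named copies were counted by symbol and include genes such as Rpl10l, Rpl7l1 and Rpl22l1, so they are not only processed copies. Reads that such copies share with the parent gene may have been divided between them, dropped or counted for the parent, so the count of any member is uncertain by an unknown amount. Counts were not divided by transcript length, and levels were therefore not compared between genes.

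The 5′ ends of several members are shown because the TOP tract is the sequence feature that the family is known for. The sequences are those of the RefSeq promoter table (build GRCr8), matched by symbol for 47 of the 59 genes, 1 of them (Rpl10l) through an older symbol. A tract was called where a C lay at the annotated start or within 5 bases of it on the transcribed strand and was followed by at least 4 further bases that were each C or T. Such a tract was present in 29 of the 47 genes (61.7%), against 5704 of all 33469 promoters in the table (17.0%). It was 5 to 20 bases long with a median of 8, and in 15 genes it began exactly at the annotated start. Each line runs from 10 bases before the annotated start to the end of the first 20 transcribed bases, and capitals mark the tract.
Rpl10, chrX:157205840-157205869, plus strand: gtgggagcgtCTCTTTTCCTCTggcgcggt
Rpl10l, chr6:90281963-90281992, minus strand: tctccattttgctgctggcggtgagcacgc
Rps27, chr2:177964587-177964616, minus strand: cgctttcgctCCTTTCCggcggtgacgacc
Rps27l, chr8:76443648-76443677, plus strand: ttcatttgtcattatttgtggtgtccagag
Rpl22, chr5:168117951-168117980, plus strand: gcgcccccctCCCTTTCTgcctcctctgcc
Rpl22l1, chr2:113683186-113683215, plus strand: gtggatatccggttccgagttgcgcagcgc
Rps4x, chrX:71342902-71342931, minus strand: cgcgcgcagCCTCCgaccctaatttcttcg
Rps4y2, chr4:183000903-183000932, plus strand: cagctCTCCTCactcgcttgtgctctggga
Rplp0, chr12:46718371-46718400, minus strand: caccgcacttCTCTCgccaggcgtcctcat
Rpl29, chr8:115947633-115947662, plus strand: tttctctttCTCTTCCggtcccaggcgctg
Rpl3, chr7:113507971-113508000, minus strand: gcctgctcgatctctatcggcggcgtgtgg

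The parents Rpl10, Rps27 and Rpl22 each had a tract that began at the annotated start, and their paralogs Rpl10l, Rps27l and Rpl22l1 had none in this window. Rps4x had one that began 1 base before the annotated start. In its paralog Rps4y2 the called tract was 6 bases long and began 5 bases before the start. It met the rule but lay mostly before the transcribed bases. The lack of a match, as in Rpl3, says only that these letters are not at the annotated start, and an annotated start can differ from the one used in liver.

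The 16 libraries held between 14901365 and 21632979 reads assigned to genes. The 59 ribosomal protein genes, without the 27 canonical genes that had no row, took 1.04% ± 0.101 of the normalized counts under CAS. Under SPI they took 0.993% ± 0.106 (SD, n = 8 each). The ranges were 0.901% to 1.21% and 0.843% to 1.11%. The 2 diets overlapped in this share, with CAS 1 and CAS 3 above every SPI-fed rat and SPI 3 and SPI 4 below every CAS-fed rat. When the 10 most abundant genes of the table were left out of the total, the share was 1.96% ± 0.225 in CAS-fed and 1.87% ± 0.182 in SPI-fed rats (SD, n = 8 each). Albumin (Alb) alone took 19.98% ± 2.73 and 22.1% ± 2.10 of the counts (SD, n = 8 each), and the 13 protein-coding genes of the mitochondrial genome took 15.9% ± 1.48 and 15.5% ± 1.47. The 6 hepatocyte markers in the table summed to between 4331590 and 6746520 normalized counts in each liver, and 1 of them was called higher in SPI-fed rats (Hpd, log2 fold change 0.57, adjusted p = 0.0406 from limma). DESeq2 called 2 of the 6 higher. The 9 leukocyte markers in the table summed to 216 to 774 in CAS-fed and 279 to 454 in SPI-fed rats. None of the 5 tested was called by limma, edgeR or DESeq2 or had an unadjusted p under 0.05. Of 13 macrophage, 7 endothelial, 7 stellate and 7 erythroid markers limma called none (edgeR called 2 macrophage markers and DESeq2 3). In that order, 4, 1, 5 and 0 had an unadjusted p under 0.05 from limma, where 18.8% of all genes did. The 5 stellate markers were lower in SPI-fed rats, where 801 of all 8004 genes were lower at that threshold. All 7 stellate markers had a log2 fold change below 0, with a median of -0.76. The endothelial marker under the threshold was higher. The macrophage markers under it were 2 higher and 2 lower. Of 6 antigen presenting cell markers, limma called 3 lower in SPI-fed rats (Cd74, RT1-Ba and RT1-Bb), where 2.9% of all genes were. All 6 had a log2 fold change below 0, and edgeR called 4 and DESeq2 5 of them lower. The 7 antigen presenting cell markers in the table, tested or not, summed to 1342 to 5211 in CAS-fed and 1126 to 1434 in SPI-fed rats. The part of these cells in the ribosomal protein results was not tested. In whole liver, fewer cells of a type and less RNA per cell cannot be told apart.

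In most livers the ribosomal protein genes lay largely on the same side of their own means, and livers of both diets stood at either end. For each gene, the deviation of each liver from the gene's own mean over the 16 livers was taken on the log2 scale after quantile normalization, which gives every library the same distribution of values. The median deviation of the 59 genes ran from -0.23 in SPI 4 to 0.25 in CAS 1, a span of 0.48. The median over all genes is held near 0 by quantile normalization itself and gives no comparison here. In SPI 8, 52 of the 59 genes lay above their own mean, in CAS 1 51, in CAS 3 46 and in CAS 4 44. In SPI 4 only 8 did, in CAS 6 9, in CAS 8 10 and in SPI 3 13.

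**Figure D1:**
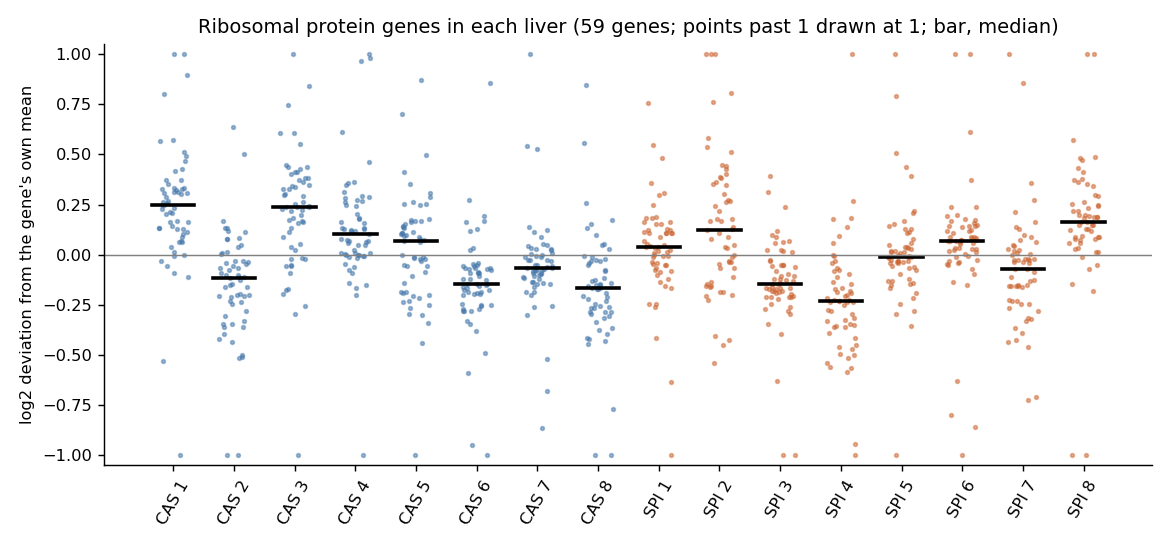
Deviation of each of the 59 ribosomal protein genes from its own mean over 16 livers (log2 scale after quantile normalization, vertical axis) in each liver (horizontal axis, CAS blue and SPI orange), with the median as a black bar and points past 1 drawn at 1. The medians run from -0.23 in SPI 4 to 0.25 in CAS 1, and high and low livers are present in both diets.

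The proteins of the large and the small subunit moved in the same direction in all 16 livers. The median deviation of the 33 canonical 60S genes ran from -0.22 in SPI 4 to 0.24 in CAS 3, and that of the 19 canonical 40S genes from -0.30 in SPI 4 to 0.29 in CAS 1. Other parts of the translation machinery did not spread as far in the same livers, with median deviations from -0.13 to 0.10 for 31 initiation factors and from -0.10 to 0.17 for 20 other genes known for TOP mRNAs. Mitochondrial ribosomal proteins, which are encoded in the nucleus and form a separate ribosome, spread over a like range (-0.21 in CAS 2 to 0.27 in SPI 8), but the liver with their lowest median was not that of the cytosolic proteins. CAS 1 and SPI 8, high in cytosolic ribosomal proteins, also had the highest share of counts in Alb (25.9% and 25.7%). CAS 3 and SPI 2 were high as well with Alb at 19.1% and 18.6%, and SPI 4, the lowest, had Alb at 21.9%, so that the order of the livers by Alb was not that by ribosomal proteins. On the deposited scale, without quantile normalization, the lowest median was in CAS 8 (-0.23) and the highest in SPI 8 (0.29).

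The comparison of SPI-fed with CAS-fed rats asked whether the level of each mRNA differed between the 2 diets. It was tested with limma on log2 (normalized count + 1) after quantile normalization, two-sided, with p-values adjusted by Benjamini-Hochberg over all 8004 genes and a call at an adjusted p under 0.05. Of the 59 ribosomal protein genes, 0 were higher in SPI-fed rats, where 1.97% of all genes were (158 genes). Only Rpl10l was lower, 1 of 59, where 2.9% of all genes were (232 genes). edgeR's quasi-likelihood test on the recovered reads also called 0 higher and 1 lower, and DESeq2 0 higher and 2 lower (Rpl10l and Rpl29). At an unadjusted p under 0.05 limma listed 3 of the 59 genes (Rpl10l, Rpl29 and Rpl3, each with a lower value in SPI-fed rats), where 18.8% of all genes lay under it. In no ribosomal protein gene did every SPI-fed rat lie below every CAS-fed rat, a pattern held by 0.587% of all genes, nor did every SPI-fed rat lie higher than every CAS-fed rat, as in 0.237%.

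**Figure D2:**
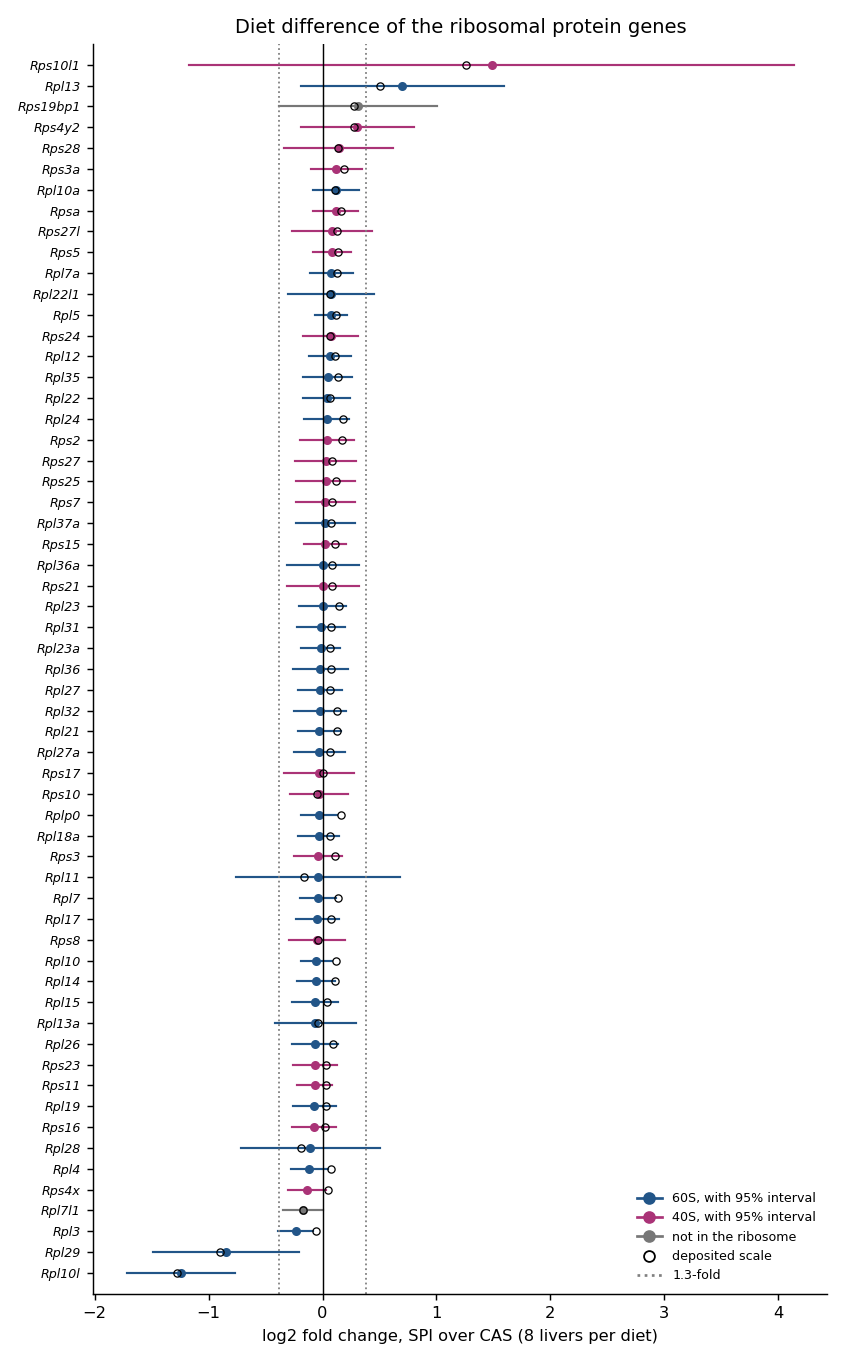
Log2 fold change of SPI over CAS (horizontal axis) for each of the 59 ribosomal protein genes (vertical axis), as filled points with 95% intervals from limma after quantile normalization and as open circles on the deposited scale. Most intervals lie inside the dotted lines at 1.3-fold, and the interval of Rpl10l, from -1.72 to -0.77, lies wholly outside them.

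For most members the interval after quantile normalization was narrow enough to bound the diet difference on that scale. Intervals on the deposited scale were not counted. The 95% interval of the log2 fold change lay wholly within 1.3-fold in either direction (0.38 on the log2 scale) for 46 of the 59 genes (78.0%), against 21.1% of all genes tested. Among genes with a mean of at least 500 normalized counts, these numbers were 45 of 49 ribosomal protein genes (91.8%) and 1138 of 2026 genes (56.2%). At that level the precision was alike, with a median half-width of the interval of 0.20 for the ribosomal protein genes and 0.21 for all genes. Of the 10 members with a lower mean, 1 had its interval within 1.3-fold.

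The small remaining difference had no fixed sign. The median log2 fold change of the 59 genes was -0.02 after quantile normalization, with 27 genes above and 32 below 0, and 0.08 on the deposited scale, with 50 above and 9 below. The medians over all genes were 0.0092 and -0.0042 on these scales. For all 2026 genes with a mean of at least 500 they were -0.001 and 0.05, with 1233 above 0 as deposited. For the 49 members at that level they were -0.02 and 0.09, with 44 above 0 as deposited. The direction turned with the scaling in 23 of the 59 genes, none of them called on either scale. The 33 canonical 60S genes had a median of -0.03 (0.08 as deposited) and the 19 canonical 40S genes a median of 0.02 (0.08 as deposited). The 29 genes with a TOP tract had a median of 0.0032 and the 18 genes without one a median of -0.02 (0.08 and 0.10 as deposited).

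**Figure D3:**
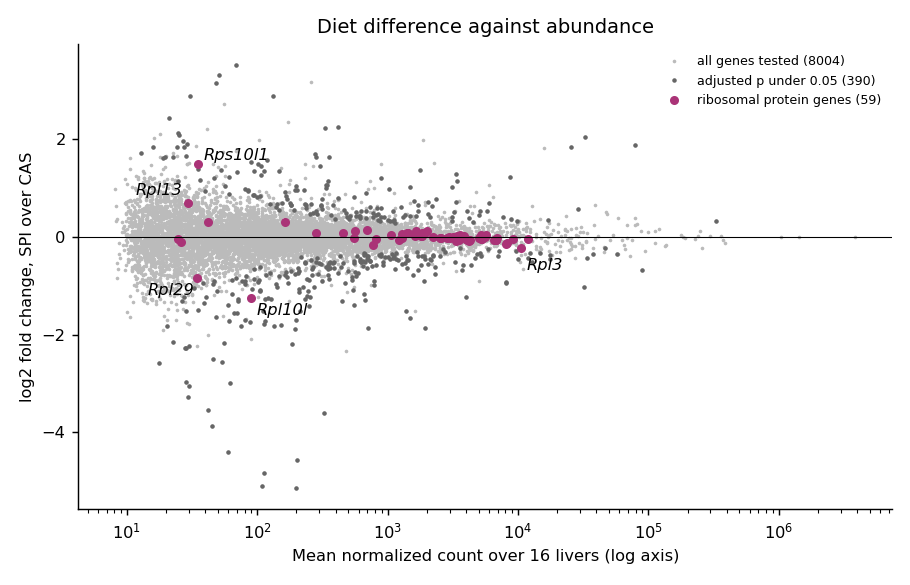
Log2 fold change of SPI over CAS (vertical axis) against the mean normalized count over 16 livers (horizontal log axis) for the 8004 genes tested (light grey), the 390 with an adjusted p under 0.05 (dark grey) and the 59 ribosomal protein genes (purple). Members with a mean of at least 500 lie between -0.24 and 0.14, and 5 genes are named on the plot.

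Rpl10l was the only ribosomal protein gene called different by limma. It is an intronless autosomal copy of the X-linked Rpl10, and in mice it is known for replacing Rpl10 in male germ cells while the X chromosome is silenced. Its normalized counts in CAS-fed rats were 78.5 at the lowest, 120.4 at the median and 166.9 at the highest. In SPI-fed rats they were 30.1 at the lowest, 50.6 at the median and 92.6 at the highest. The groups overlapped by 1 rat of each diet, since SPI 4 (92.6) lay above CAS 4 (78.5). The log2 fold change was -1.24 (SE 0.23, 95% interval -1.72 to -0.77, adjusted p = 0.00262 from limma), from means of 124.8 ± 27.0 in CAS-fed and 53.7 ± 23.0 in SPI-fed rats (SD, n = 8 each). It was called in each of the 28 alternative analyses run, and the adjusted p lay between 0.00116 and 0.00774 when single livers were left out.

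Rpl10 itself, which joins the 60S subunit late in its assembly and is needed for the subunits to join, had an interval near 0. Its normalized counts were 5767, 6568 and 7112 (lowest, median and highest) in CAS-fed rats and 6228, 7210 and 7957 in SPI-fed rats. The log2 fold change was -0.05 after quantile normalization (SE 0.06, adjusted p = 0.700 from limma) and 0.12 on the deposited scale (adjusted p = 0.354). RefSeq names 17 copies of Rpl10, a count that includes Rpl10l, so reads of Rpl10 and those copies may be mixed. The share of Rpl10 reads that could belong to Rpl10l cannot be read from these counts.

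**Figure D4:**
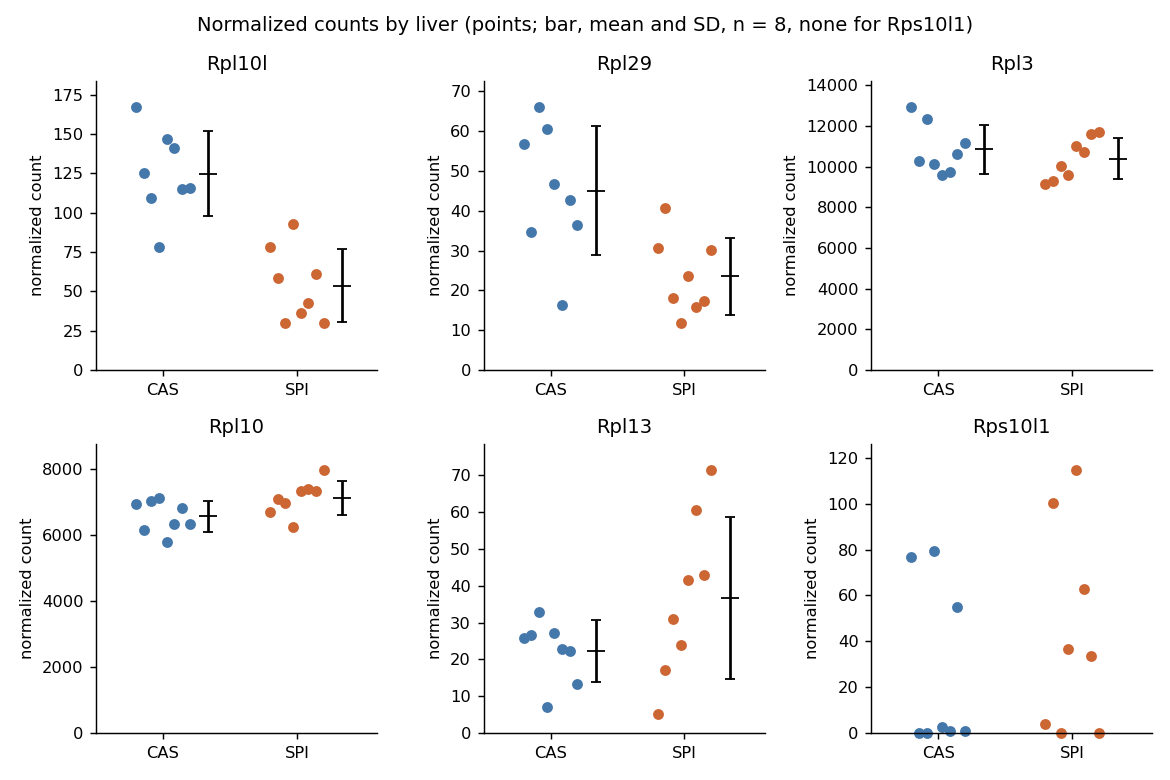
Normalized counts (vertical axes, deposited scale) of 6 ribosomal protein genes in each liver, CAS blue and SPI orange, with mean and SD as black bars (n = 8 per diet, none drawn for Rps10l1). In Rpl10l 1 SPI-fed rat lies above the lowest CAS-fed rat, and in the other 5 genes the diets overlap more widely.

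Rpl29 and Rpl3 came next in order of p and did not pass the adjusted threshold. Rpl29, a small basic protein on the surface of the 60S subunit, had normalized counts of 16.4, 44.7 and 65.9 (lowest, median and highest) in CAS-fed rats and 11.9, 20.9 and 40.6 in SPI-fed rats. Its log2 fold change was -0.85 (SE 0.31, adjusted p = 0.126 from limma), and it was called without CAS 6 (adjusted p = 0.0317) and by DESeq2 (adjusted p = 0.0340). CAS 6 held the lowest count of the CAS-fed rats. RefSeq names 25 copies of Rpl29.

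Rpl3, which reaches towards the site where peptide bonds are formed, was among the members with the most reads. Its normalized counts were 9603, 10437 and 12908 (lowest, median and highest) in CAS-fed rats and 9149, 10370 and 11687 in SPI-fed rats, with wide overlap. The log2 fold change was -0.24 after quantile normalization (SE 0.07, adjusted p = 0.0681 from limma) and -0.06 on the deposited scale (adjusted p = 0.725). It was called after quantile normalization without CAS 4 (adjusted p = 0.0344) or without CAS 6 (adjusted p = 0.0429).

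The members with the largest positive values all had wide intervals. Rpl13, of the 60S subunit, had normalized counts of 6.95, 24.3 and 33.0 (lowest, median and highest) in CAS-fed rats and 5.11, 36.3 and 71.4 in SPI-fed rats. The log2 fold change was 0.70 (SE 0.43, adjusted p = 0.397 from limma). Rps19bp1 was at 0.31 (SE 0.34), Rps4y2 at 0.31 (SE 0.24) and Rps28, of the 40S subunit, at 0.14 (SE 0.23), all with adjusted p-values of 0.515 or more from limma. None of these differences was larger than the spread between rats.

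The pseudogene Rps10l1 divided the livers into a high and a low set, each with livers of both diets. The cause of this split was not tested. In 8 livers it had 33.7 to 114.7 normalized counts (CAS 1, 4 and 7, and SPI 2, 4, 5, 6 and 7), and in the other 8 at most 3.83, which is no more than 3 reads, with 0 reads in 4 livers. This bimodal spread gave it the highest within-diet SD of the 59 genes (2.66 on the log2 scale, against a median of 0.21 for the members and 0.40 for all genes). The log2 fold change was 1.49 (SE 1.25, adjusted p = 0.564 from limma). At the other end, Rpl5 had the lowest within-diet SD (0.08), with counts of 1183 to 1434 in CAS-fed and 1311 to 1541 in SPI-fed rats.

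Proteins with roles beyond the mature ribosome gave no call. Rpl5 and Rpl11 form a particle with 5S ribosomal RNA that binds MDM2 and stabilises p53 when ribosome assembly is disturbed. Rpl5 was at a log2 fold change of 0.07 (95% interval -0.07 to 0.21), and Rpl11, with 24.6 normalized counts on average, at -0.04 with an interval too wide to bound it (-0.76 to 0.68). Rpsa, a 40S protein also known as the laminin receptor, was at 0.12 (95% interval -0.08 to 0.31). Rplp0, the base of the stalk to which the elongation factors bind and a frequent reference gene in PCR, had 8674, 11300 and 13328 normalized counts (lowest, median and highest) in CAS-fed rats and 10302, 12800 and 14085 in SPI-fed rats. Its log2 fold change was -0.03 (95% interval -0.19 to 0.13) after quantile normalization and 0.16 on the deposited scale, a sign that turned with the scaling. The other members with high counts, Rpl4, Rps4x and Rpl7, lay at -0.11, -0.14 and -0.04 after quantile normalization and at 0.08, 0.05 and 0.13 as deposited. Rpl26 and Rpl36a, both of the 60S subunit, lay at -0.07 and 0.0034 (0.09 as deposited for each). Of the genes not described one by one, the highest was Rps3a at 0.12 and the lowest Rps16 at -0.08.

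Each paralog was also set against its parent gene within the same liver, a ratio that does not depend on the scaling between libraries. The ratios and their test, an exact two-sided permutation of the 16 livers for each of 5 pairs, were chosen after the counts had been seen. Counts of Rpl10l were 1.93% ± 0.479 of those of Rpl10 in CAS-fed and 0.775% ± 0.388 in SPI-fed rats (SD, n = 8 each, exact p = 0.000466, adjusted over the 5 pairs 0.00233). Counts of Rpl7l1, the assembly factor, were 9.51% ± 1.04 of those of Rpl7 in CAS-fed and 7.70% ± 0.791 in SPI-fed rats (exact p = 0.00187, adjusted 0.00466). The ratio of Rpl7l1 ran from 8.04% to 11.0% in CAS-fed and from 6.23% to 8.68% in SPI-fed rats, with overlap.

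Rpl7l1 alone was not called, at a log2 fold change of -0.17 on both scales (adjusted p = 0.281 after quantile normalization and 0.275 as deposited, limma), with normalized counts of 675, 846 and 909 (lowest, median and highest) in CAS-fed and 654, 711 and 855 in SPI-fed rats. The other pairs did not differ beyond the spread between rats. Rps27l, which p53 is known to induce, had counts of 77.5% ± 13.7 of those of Rps27 in CAS-fed and 80.5% ± 15.6 in SPI-fed rats (exact p = 0.689). Rpl22l1, which Rpl22 is known to repress in mice, had 43.6% ± 11.7 and 43.1% ± 9.43 of the counts of Rpl22 (exact p = 0.923). Rps4y2 had 1.94% ± 0.943 and 2.15% ± 0.726 of those of Rps4x (exact p = 0.619).

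**Figure D5:**
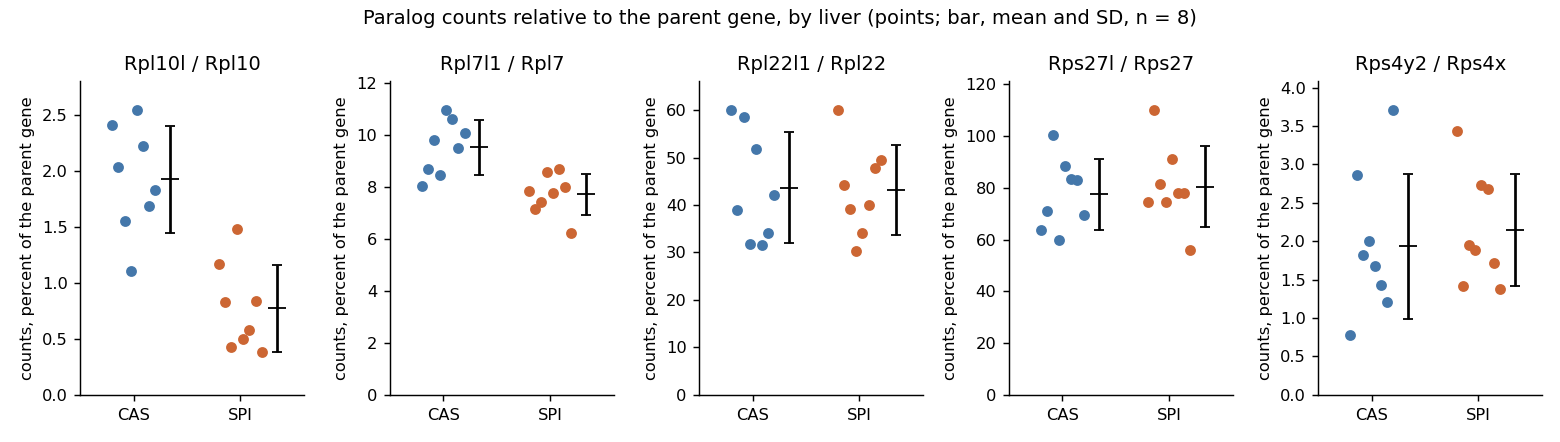
Counts of 5 genes as a percentage of those of the parent gene in the same liver (vertical axes), CAS blue and SPI orange, with mean and SD as black bars (n = 8 per diet). The ratios of Rpl10l and Rpl7l1 are lower in SPI-fed rats with overlap, and the other 3 cover the same range in both diets.

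Genes that act with the ribosome were examined as lists. None of the 31 initiation factors tested was called by limma, and 4 (1 higher and 3 lower) had an unadjusted p under 0.05, where 18.8% of all genes did (edgeR called 0, DESeq2 1). Of 5 elongation factors, Eef1a1, which brings aminoacyl-tRNA to the ribosome, was lower, from 18300 ± 2345 to 17038 ± 2204 normalized counts (SD, n = 8 each), with a log2 fold change of -0.37 after quantile normalization (adjusted p = 0.0346 from limma). On the deposited scale it was -0.11 with an adjusted p of 0.581, and the call was also lost without any 1 of CAS 1, CAS 2, CAS 3, CAS 4, SPI 3, SPI 4 and SPI 6 (adjusted p up to 0.0747). Under a lane block Eef1a1 had an adjusted p of 0.0821, under a replicate block 0.0806, and after dropping the livers numbered 2 and 8 0.0814. Eef1a1 was also the only gene called among 20 other genes known for TOP mRNAs, where 2.9% of all genes were called lower. None of the 79 ribosome biogenesis genes was called by limma, edgeR or DESeq2. Their median log2 fold change was 0.06, 52 of them lay above 0, and 5 had an unadjusted p under 0.05, a smaller share than the 18.8% of all genes. All 5 were higher in SPI-fed rats, where 706 of all 8004 genes were higher at that threshold.

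Of 62 mitochondrial ribosomal proteins, 48 lay above 0, with a median log2 fold change of 0.12 on either scale, beside 0.01 for all genes. Only Mrps9, of the small mitochondrial subunit, was called, where 1.97% of all genes were called higher. Of the 62, 10 had an unadjusted p under 0.05 from limma, where 18.8% of all genes lay under it in either direction. All 10 were higher in SPI-fed rats, where 706 of all 8004 genes were higher at that threshold. Mrps9 had 805, 924 and 1038 normalized counts (lowest, median and highest) in CAS-fed rats and 1057, 1181 and 1238 in SPI-fed rats. The lowest SPI-fed rat was thus higher than the highest CAS-fed rat on the deposited scale. After quantile normalization, 0.237% of all genes held that pattern. The log2 fold change of Mrps9 was 0.32 (SE 0.08, adjusted p = 0.0158 from limma). In limma the call was lost under a lane block (adjusted p = 0.0507), under a replicate block (0.05545) and after dropping the livers numbered 2 and 8 (0.0777).

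In the list of mTOR, S6 kinase and LARP1 control, 2 of 26 genes were lower and 0 higher, where 2.9% and 1.97% of all genes were. Only these 2 had an unadjusted p under 0.05 from limma, where 18.8% of all genes did. Sesn3, a sestrin known to restrain mTOR complex 1, fell from 1717 ± 366 to 1108 ± 128 normalized counts (SD, n = 8 each), with a log2 fold change of -0.64 (SE 0.13, adjusted p = 0.00388 from limma). It was called in each fit that left out 1 liver, and was at an adjusted p of 0.0688 without the libraries numbered 2 and 8. Rragc, a Rag GTPase that brings mTOR complex 1 to the lysosome when amino acids are plentiful, was at -0.39 (SE 0.11, adjusted p = 0.0429 from limma). Its call held in 4 of the 16 fits that left out 1 liver (CAS 4, CAS 6, SPI 1 or SPI 5) and reached an adjusted p of 0.0920 in the others. It was also lost with a weight per library (0.0797) and without the libraries numbered 2 and 8 (0.172). The kinases Rps6kb1 and Rps6kb2, which phosphorylate the ribosomal protein Rps6, were at 0.20 (SE 0.17) and 0.34 (SE 0.17) and were not called. None of 22 genes known to answer to ATF4 in amino acid shortage was called by limma, edgeR or DESeq2. Their median was 0.10, and 4 had an unadjusted p under 0.05 from limma, where 18.8% of all genes did in either direction. All 4 were higher in SPI-fed rats, where 706 of all 8004 genes were higher at that threshold.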

How the data were processed

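Liver RNA of 16 rats was sequenced by the authors from Illumina TruSeq libraries. The signal values, 16 columns, are gene counts scaled by the authors with 1 size factor for each library. Dividing by the smallest value above 0 of each library gave whole reads for 100% of values (tolerance 0.05). The authors' mean signal, log2 fold changes and their errors, Wald score and p-value columns, as deposited, were not used. The submitters' processing notes name FastQC, DESeq2 and the build Rnor_6.0, whereas the methods of the study name CLC Genomics Workbench, an earlier rat assembly, RPM, log2 and quantile normalization. How reads of near-identical copies were assigned is not given in the sources used here. Quantile normalization changes the fold changes, so values on the deposited scale are given beside them.

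Genes with at least 10 normalized counts in at least 8 of 16 livers (8004) were tested with limma 3.58.1 (trend and robust) in R 4.3.3, on log2 (value + 1) after quantile normalization. edgeR 4.0.16 and DESeq2 1.42.0 on recovered reads were alternatives, together with other scalings, pseudocounts, filters, blocks by number and by lane, library weights and leaving out livers. The lane matched the replicate number in every library except those numbered 2, which were in lane 7. Same-numbered CAS and SPI libraries thus shared a lane, and the blocks by number and by lane are not independent checks. The tests were checked on simulated data. The members and gene lists were chosen with earlier results of these data known. Members are described one by one by rule: those called, the 5 highest and 5 lowest fold changes and mean counts, paralogs with their parents, and proteins with known further roles. From the other lists, called genes or those with the smallest p were named. Sequences and copy numbers come from RefSeq tables (GRCr8).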

Additional observations from a re-analysis of the deposited data

Results flagged for a closer look

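Among 52 checks of a single liver against the other livers of its diet, over the described genes and 2 summaries of the family, 2 values stood apart, and chance alone sets about 1 in 20 groups apart. Rpl28 had 49.7 normalized counts in CAS 4, the highest of the CAS-fed rats, whose median was 24.2. Rps19bp1 had 86.5 normalized counts in SPI 2, the highest of the SPI-fed rats, whose median was 37.9. Both genes had few reads, and neither was called different between the diets.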

How the results depend on the processing

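Rpl10l was lower and called under each of the 28 alternatives, with a log2 fold change from -1.37 to -1.13 and adjusted p-values up to 0.0382. No ribosomal protein gene was called higher under any of them. The number called lower was 1, except 2 with DESeq2 and a range of 1 to 3 when single livers were left out (2 without CAS 4 and 3 without CAS 6). The median log2 fold change of the family ran from -0.05 to 0.04 without single livers and from -0.15 (without the libraries numbered 2 and 8) to 0.10 (upper-quartile scaling) otherwise, and its sign differed from the reported one in 10 of 28. The difference in share of counts, -0.04 percentage points, ran from -0.06 to -0.02 without single livers. Over all genes, 158 higher and 232 lower became 308 and 361 with DESeq2. They became 102 and 138 with lane as a block, and 45 and 67 in the 12 rats left when the libraries numbered 2 and 8 were dropped. Upper-quartile scaling gave 256 higher and 208 lower, so that 55.2% of the calls were higher in place of 40.5%. Without single livers the counts ran from 98 to 202 higher and from 135 to 287 lower. They were smaller by over 1.5 times without CAS 2, CAS 3, CAS 5 or SPI 6 for the higher genes (100, 100, 98 and 103), and without CAS 1, CAS 2, CAS 3, CAS 5 or SPI 3 for the lower (152, 135, 142, 148 and 152). The causes were not tested.

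The replicate numbers did not pair the rats, since deviations of same-numbered livers correlated at -0.10 to 0.07. With the replicate number as a block, 97 genes were higher and 149 lower, Rpl10l had an adjusted p of 0.0125, and no other ribosomal protein gene was called. Of the 666 further fits of the 24 genes named by rule, 638 kept their side of the threshold and moved by less than the spread between rats, 4 crossed it (Rpl29 and Rpl3, given above) and 24 moved further without a call. Rats are the replicates, and genes with few reads, such as Rpl11, Rpl13, Rpl28 and Rpl29, had intervals too wide to bound a difference at this depth.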
